A study of Drosophila melanogaster with 4 samples.

Results

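The dorsoventral axis of the Drosophila embryo is set by a maternal signal and read out by genes that the embryo itself transcribes. The 10 genes described here are 2 maternal factors, dl and Tl, and 8 zygotic genes of the same pathway, twi, sna, rho, sog, zen, zen2, tld and tsg. They were chosen by name for their roles, with earlier results of these data known, and the rule used no measured value. All 10 were found among the 13968 annotated protein-coding genes of the chromosome arms, and 143 of the 232302 transcription start sites (TSSs) in the series lay within 200 bp of one of their annotated transcript starts on the same strand. Capped small RNA sequencing (csRNA-seq), which isolates short capped RNAs so that the 5′ end of each read marks a base where transcription began, was applied to Canton S wild-type embryos aged 0 to 12 h, with no treatment and no mutant. There were 3 csRNA-seq libraries and 1 input library. Each TSS carries a single coverage value, in reads per 10000000, that comes from 1 of the csRNA-seq libraries. How the library was chosen for each TSS is not known. Sums and shares of a gene can therefore combine values of different libraries and need not match any library. Whether that choice biased them cannot be told. Values of the input or of separate replicates were not analysed here. The labels name no tissue and no narrower stage, so a gene used briefly or in few cells cannot be told apart from one used weakly in many.

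In the fly, the receptor Tl (Toll) is activated on the ventral side of the egg and lets the NF-kappaB family transcription factor dl (Dorsal) enter ventral nuclei. Dorsal activates twi and sna where it is most abundant, rho and sog in a broader lateral domain, and represses zen and tld, which are used on the dorsal side, as are zen2 and tsg. The mRNAs of dl and Tl are loaded into the egg by the mother, whereas csRNA-seq reads new transcription in the embryo.

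Divided by what 1 read is worth in 1 of the libraries after scaling, each of the 232302 TSS values was a whole number of reads to within a relative tolerance of 1e-07. The libraries of 7299457, 5931389 and 4070746 reads gave steps of 1.37, 1.69 and 2.46. Which replicate each size belongs to was not assigned. No spread between replicates can therefore be given, and no test over replicates was possible. Where the sums of 2 genes are compared, their difference is set against its counting error, which leaves out any difference between libraries. The errors given are counting errors alone, as the standard error (SE) of a sum or as an exact Poisson 95% interval of a single TSS, and reads that are PCR copies of 1 molecule are not told apart. The labeled stage was checked with 6 patterning genes of the early embryo and 4 genes of later embryonic tissues. All 10 had a TSS at a start, a weak check because 70.0% of all protein-coding genes also had one. The sets were led by Kr (8529) and en (3493), and by Ubx (1595) and Act57B (1264). The lowest were ftz (143), with 45.7% of genes with a TSS below it, and elav (327). Of 8 genes of ovarian follicle cells and yolk proteins, 6 had no TSS, and Yp3 (13.5, 8 reads) and Cp36 (3.37, 2 reads) were low.

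All 10 dorsoventral genes had at least 1 TSS at a start, which 70.0% of protein-coding genes also had. Coverage summed over those TSSs reached 100 in 7 of the 10 genes, against 43.7% of all protein-coding genes. The median was 431 over the 10 genes and 61.9 over all protein-coding genes, or 173 over the 9782 that had a TSS at all. The 10 sums ran over more than 3 orders of magnitude, with Tl, sog and rho at the top and zen2 at the lower limit of the data. Those top 3 genes held 89.0% of the 19563 coverage of all 10. The genes together held 0.184% of the coverage of the series, from 10559 reads.

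Of the maternal pair, Tl encodes the transmembrane receptor and had the higher value, 9474 ± 128 (counting SE, 29 TSSs, 5558 reads), with 98.4% of the 9782 genes below it. Its strongest TSS held 5087 reads, a coverage of 8576 (8342 to 8815), and its second strongest 238 coverage. That 1 base held 90.5% of the coverage of Tl. That base, position 26799046 on the plus strand of chromosome 3R (dm6), was 5 bp inside the single annotated start at 26799041, in the 5′ UTR of a gene that spans 26799041 to 26842403 (FBgn0262473). dl, which encodes the transcription factor itself, had 272 ± 21.4 (11 TSSs, 171 reads), with 61.1% of genes below it. Tl had 34.8 times the coverage of dl. The zygotic genes lay on both sides of dl and all below Tl.

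dl (FBgn0260632, minus strand of chromosome 2L, 17436830 to 17450364) was read from each of its 3 annotated starts. The outermost, at 17450364, held 199 ± 17.1 coverage, 73.3% of the gene, with its strongest TSS 4 bp inside at 17450360 (104 reads, 142 coverage, 116 to 173). The start at 17445567 held 57.9 ± 11.3, or 21.3%, and its strongest TSS lay exactly on the annotated base with 16 reads. The middle start, at 17448510, rested on 6 reads and 14.7 coverage, again with its strongest TSS on the annotated base. A further group of 4 TSSs (28 reads, 43.7 coverage) lay between the last 2 starts, at 17447498 to 17447504 in an intron of dl and on its strand, 1011 bp from the nearest annotated start. It held more coverage than the middle start did.

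Among the zygotic genes, the median was 413, with a range of 3.37 to 4244. The mesoderm determinants twi and sna were in the middle of the range. twi encodes a basic helix-loop-helix activator and had 235 ± 23.2 (8 TSSs, 105 reads), with 57.5% of genes below it. sna encodes a zinc finger repressor of neural genes and had 590 ± 33.9 (10 TSSs, 314 reads), with 76.9% below it. twi and dl, neighbours in the order of the 10 genes, differed by 36.9 with a counting SE of 31.6, which is within the 95% range of counting error.

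At sna (FBgn0003448, minus strand of 2L, 15476593 to 15478260) 3 adjacent bases carried most of the reads. Position 15478253, 7 bp inside the annotated start, had 344 coverage (204 reads, 298 to 395), the base before it in the direction of transcription, 15478254, had 115.5, and the base after it, 15478252, had 78.6. The other 7 TSSs had 15.2 or less. At twi (FBgn0003900, plus strand of 2R) the base 4 bp inside the start at 23046322 had 184 coverage (75 reads, 145 to 231), and the next highest TSS had 20.2. The annotation gives twi a start at 22985374 as well, 60734 bp from the next and shared with asRNA:CR42742, and no TSS lay within 200 bp of it. The start at 23046108 had a single TSS of 2 reads, which also lay within 200 bp of the start at 23046322.

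The 2 lateral genes had the highest zygotic values. sog, whose secreted product binds BMP ligands and blocks them, had 4244 ± 88.5 (37 TSSs, 2378 reads), with 96.0% of genes below it. rho, which encodes the membrane protease that releases EGF receptor ligands, had 3688 ± 94.0 (28 TSSs, 1565 reads), with 95.4% below it. The difference of 557 was 4.31 times its counting SE. The order of this pair nevertheless turned round when only the highest TSS of each gene was compared, 2005 (1892 to 2122) for sog and 2430 (2280 to 2586) for rho. It also turned round without the TSSs valued from the library of 5931389 reads, with 1432 for sog and 3637 for rho. The sum for sog includes a second promoter, and that for rho does not.

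The promoters of sog (FBgn0003463, minus strand of X, 15603283 to 15633434) were 6894 bp apart and both were used. The inner one, at 15626540, held 3276 ± 75.3 coverage (77.2% of the gene, 29 TSSs), and its strongest TSS was 9 bp inside the annotated start. The outer one, at 15633434, held 969 ± 46.6 (22.8%, 8 TSSs). Its strongest TSS, at 15633450 with 290 reads and 712 coverage, lay 16 bp upstream of the annotated start, and so outside the annotated gene. Coverage at the inner promoter was spread over more bases, with 80% of it in 6 bp against 2 bp at the outer one (the distance from the base at which 10% of the coverage had been passed to that at 90%).

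rho (FBgn0004635, plus strand of 3L, 1463811 to 1468944) began mainly at 2 bases. Position 1463819, 8 bp inside the start, had 2430 coverage from 989 reads, and position 1463815 had 597 from 243 reads. The base at 1463818 followed with 192, and no other TSS of rho passed 76.7.

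The genes of the dorsal side ran from 3.37 to 980. tld, a metalloprotease that cleaves Sog and frees BMP ligands, had 980 ± 48.3 (8 TSSs, 422 reads), with 84.5% of genes below it. tsg, whose secreted product binds BMP ligands together with Sog, had 54.6 ± 9.86 (7 TSSs, 32 reads), with 26.7% below it. zen, a homeodomain factor of the amnioserosa, had 20.8 ± 6.13 (4 TSSs, 12 reads), with 15.1% below it. zen2, its neighbour in the Antennapedia complex, had a single TSS of 2 reads and 3.37 coverage, the lowest value that a gene with a TSS can have in this list. The sums of zen and zen2 differed by 17.5, 2.65 times the counting SE, only a rough guide at 12 and 2 reads. The 95% intervals of their strongest TSSs, which are single bases and not the sums, overlapped, 1.84 to 17.3 at zen and 0.408 to 12.2 at zen2.

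At tld (FBgn0003719, plus strand of 3R, 24749731 to 24753510) the base 3 bp inside the annotated start had 887 coverage (361 reads, 798 to 983), and the next TSS had 35.6. At tsg (FBgn0003865, minus strand of X, 11988062 to 11988948) all 7 TSSs lay in the 8 bp from 6 to 13 bp inside the start, the highest with 12 reads (20.2 coverage, 10.5 to 35.3). At zen (FBgn0004053, minus strand of 3R, 6752864 to 6754194) no TSS had more than 4 reads, and the highest lay on the annotated base. The single TSS of zen2 (FBgn0004054, minus strand of 3R, 6743135 to 6744136) also lay on an annotated base.

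**Figure D1:**
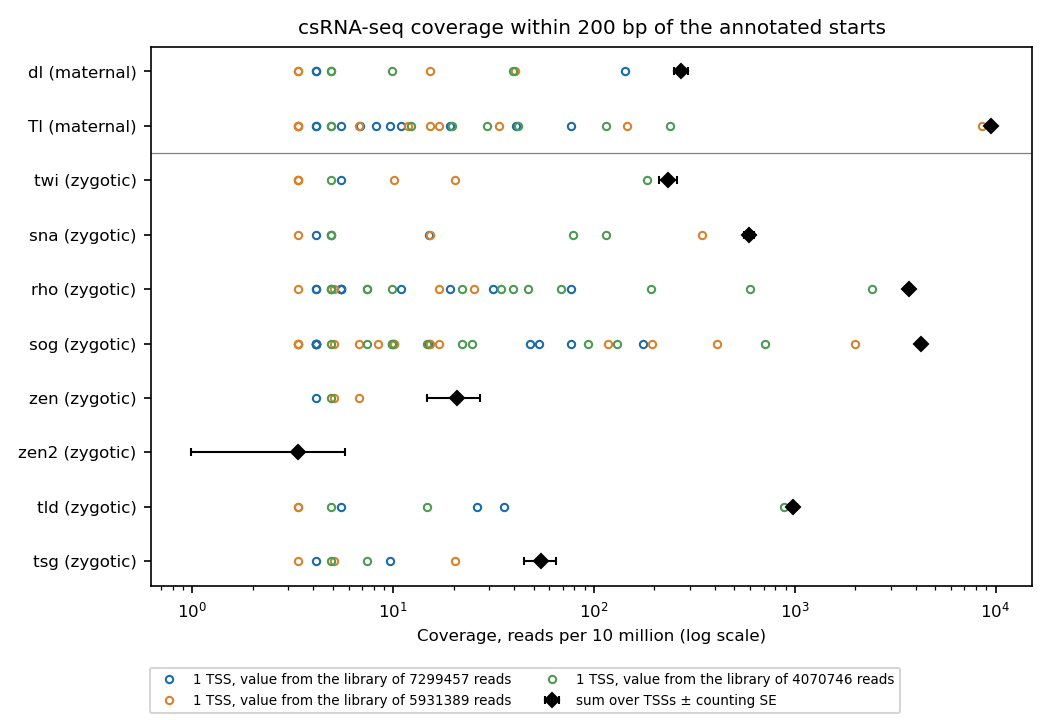
Coverage in reads per 10000000 (horizontal, log scale) for the 2 maternal and 8 zygotic genes (rows). Each circle is 1 TSS, colored by the library that gave its value, and each diamond is the sum over the TSSs of the gene with its counting SE. Tl reaches 9474 through 1 TSS of 8576, sog and rho follow at 4244 and 3688, and zen2 has a single TSS at 3.37.

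The library that gave the value differed from gene to gene, and the levels moved with it. In the series as a whole the libraries of 7299457, 5931389 and 4070746 reads held 28.3%, 32.1% and 39.6% of the coverage. At Tl, 93.1% of the coverage came from the library of 5931389 reads, as did 66.3% at sog and 61.4% at sna. At rho, tld and twi, the library of 4070746 reads gave 94.1%, 92.5% and 80.5%. At dl, the library of 7299457 reads gave 55.4%. Without the TSSs valued from the library of 5931389 reads, Tl had 653, sog 1432, sna 228, zen 9.02, tsg 25.98 and zen2 none. Tl was then below rho (3637), sog and tld (974). Without those of the library of 4070746 reads, rho had 219, tld 73.9, twi 45.9 and sna 382. Tl and sog were then again the highest, and 5 of the 10 genes reached 100, against 35.3% of protein-coding genes. Without those of the library of 7299457 reads, dl had 121 and was below twi. Leaving out a library in this way leaves out whole positions, and what the other libraries held at them is not known.

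Initiation was narrow at most of these genes, as at several other genes of the axis. Of the 143 TSSs, 34 (23.8%) rested on 2 reads, against 32.1% of all TSSs in the series. Of the 143, 88 (61.5%) lay within 10 bp of the strongest TSS of their gene. That share was not computed over all genes, so it cannot show whether these genes were narrower than others. It also counts TSSs at the other promoters of dl and sog as distant. The strongest TSS lay 0 to 9 bp downstream of its annotated start in all 10 genes. The median was 4.5 bp, against a median absolute offset of 10 bp over all 9782 genes. In the 9 genes with at least 3 TSSs at the promoter that holds the strongest, the strongest TSS held 32.4% to 90.5% of the promoter's coverage. It held 50% or more in 7 of the 9 genes, against 34.9% of the 8158 protein-coding genes with as many TSSs. Without the TSSs valued from the library of 4070746 reads the count was 4 of 9, against 36.4% of protein-coding genes. The median share was 65.9% in the 9 genes and 37.3% in the 8158. Tl (90.5%) and tld (90.5%) had the highest shares, followed by twi (78.4%), dl (71.4%), rho (65.9%), sog (61.2%) and sna (58.2%). The 2 genes under 50%, tsg (37.0%) and zen (32.4%), were those with the fewest reads. The central 80% of coverage took 1 bp at Tl and tld and at most 6 bp in the others apart from zen (11 bp), with a median of 4 bp, against 29 bp over the 8158 genes. The widths are given with all TSSs only. Among the 2 highest genes of each zygotic list below, the share was 64.2% at zfh1, 63.1% at fog and 67.1% at vn. It was 92.5% at pyr, 91.0% at Doc1 and 91.9% at ush. At C15, a low gene, it was 34.5%. The central 80% took 1 bp at pyr, Doc1 and ush, 5 bp at vn, 6 bp at fog and 92 bp at zfh1. High shares were thus not particular to the 10 genes. The lists as a whole were not summarized by shape.

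The share moved in both directions with the TSSs left out. Without TSSs valued from the library of 5931389 reads it was 36.5% at Tl and 54.5% at zen. zen then had fewer than 3 TSSs and was not counted. Of the 8 genes counted, 6 (dl, twi, sna, rho, sog and tld) were at 50% or more, against 34.0% of protein-coding genes. The share of sog, 74.1%, was then that of its outer promoter. Without those of the library of 4070746 reads it was 35.0% at rho, 48.2% at tld and 44.0% at twi, and 90.1% at sna. In these settings the strongest base of Tl, zen and sog, and that of rho, tld and twi, was itself left out. With at least 4 reads per TSS, tsg had 67.8%, the only TSS left at zen had 100%, and all 6 genes that still had at least 3 TSSs at the promoter were at 50% or more, against 39.3% of protein-coding genes.

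**Figure D2:**
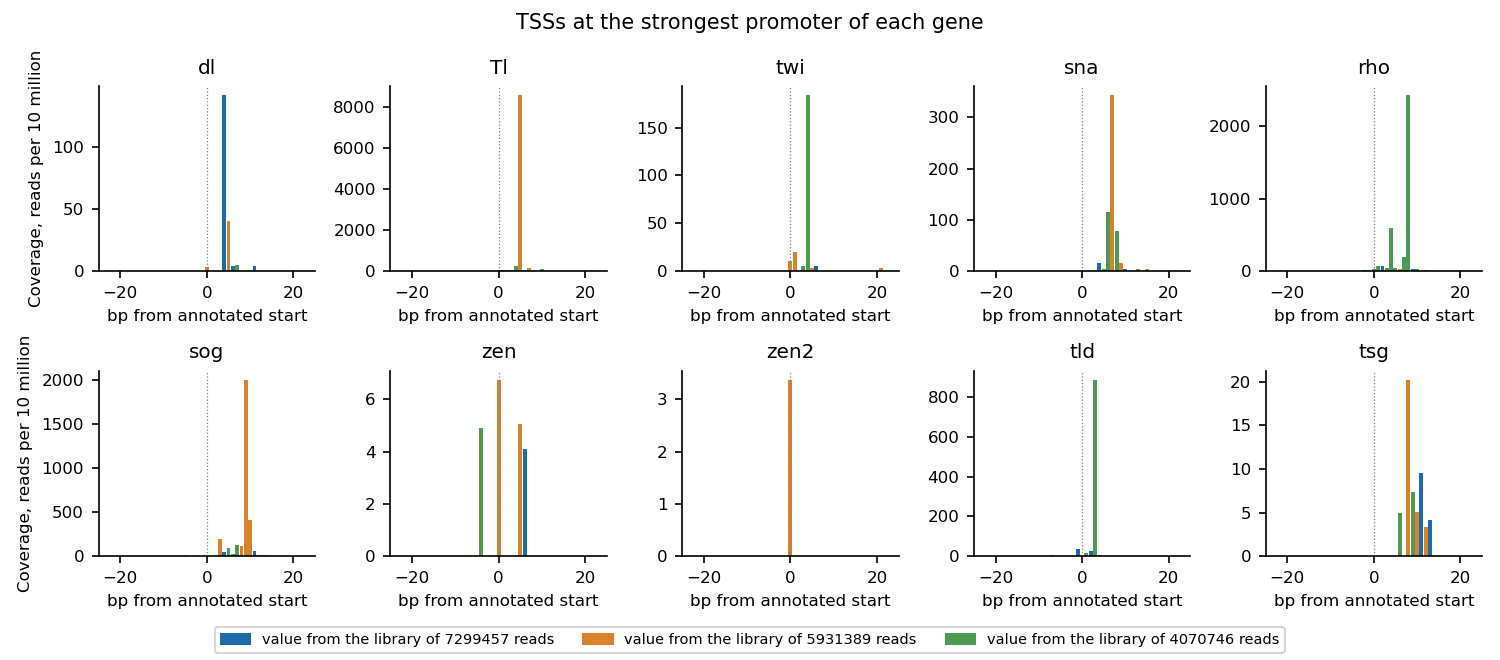
Coverage in reads per 10000000 (vertical, a scale of its own in each panel) at each base from 25 bp upstream to 25 bp downstream of the annotated start nearest the strongest TSS (horizontal), for the 10 genes. Bars are colored by the library that gave the value. A single base stands above the rest at Tl and tld, sna has 3 adjacent bases, and zen and zen2 show only bars of 4 reads or fewer.

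**Figure D3:**
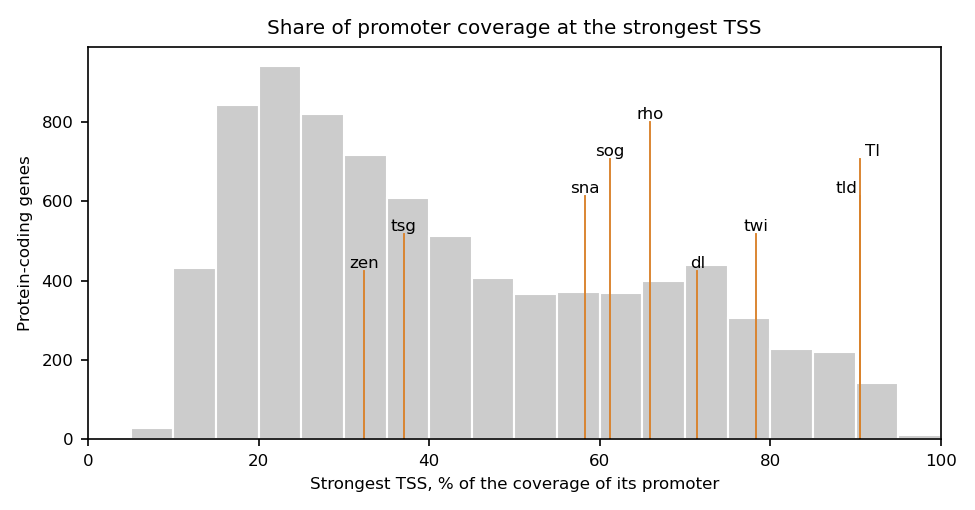
Number of protein-coding genes (vertical) by the percentage of promoter coverage held by the strongest TSS (horizontal, bins of 5%), over the 8158 genes with at least 3 TSSs there. Orange lines mark 9 dorsoventral genes, of which 7 lie at 50% or more, and Tl and tld coincide at 90.5%.

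Upstream initiation on the opposite strand was looked for within 500 bp of the strongest TSS. It was present at 4 of the 10 genes, against 45.4% of the 9782 genes, and with at least 4 reads per TSS at 2 of 9 genes (dl and rho), against 35.1% of protein-coding genes. At rho a group of 18 TSSs with 2384 coverage (1422 reads) lay at 1463632 to 1463660 on the minus strand, equal to 64.6% of the coverage of rho itself. That ratio sets values of different libraries beside each other, since the library of 4070746 reads gave 506 of the 2384 on the opposite strand but 3469 of the 3688 on the strand of rho. Without that library the opposite strand was the higher, with 1878 against 219 at rho. Without the library of 5931389 reads it had 1254 against 3637 at rho, or 34.5%. Its strongest base, 1463654 with 1020 coverage and 605 reads, was 165 bp upstream of that of rho. No annotated start lay near it, the closest on that strand being 853 bp away at lncRNA:CR44842, and it fell in an intron of Ptp61F, a phosphatase gene that runs through the locus on the minus strand. At dl, 2 opposite TSSs had 23.8 coverage, the stronger with 8 reads at 17450491, at the start of lncRNA:CR46204. zen and tld had 1 opposite TSS each, with 3 reads and a coverage of 7.37 at zen and 4.11 at tld. No opposite TSS was listed in this window at Tl, twi, sna, sog, zen2 or tsg.

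**Figure D4:**
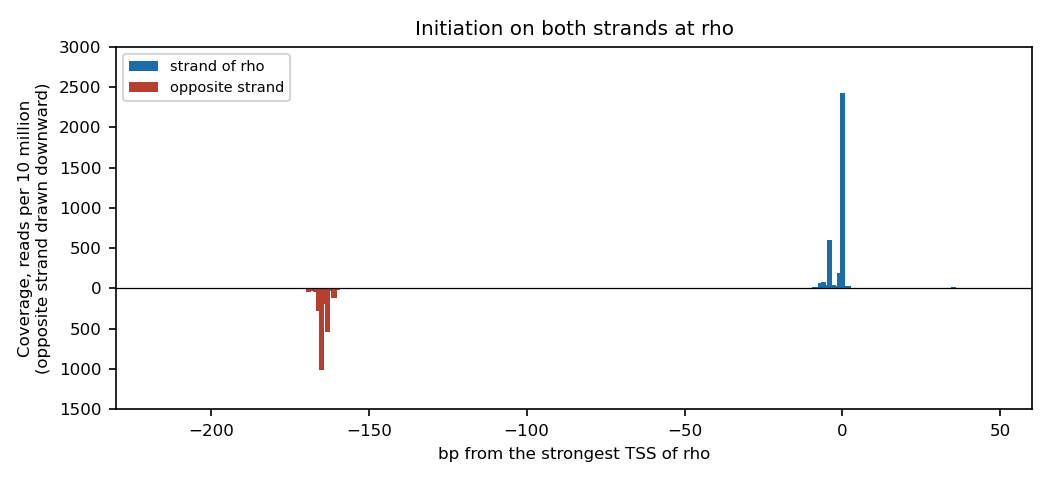
Coverage in reads per 10000000 on the strand of rho (upward) and on the opposite strand (downward) by distance in bp from the strongest TSS of rho. The groups are 165 bp apart at their strongest bases, with 2430 on the strand of rho and 1020 on the other.

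Outside the annotated starts, within 5000 bp of each gene and leaving out TSSs at starts of other genes, a site just past twi had the highest coverage on the strand of any of the 10 genes. It consisted of 2 TSSs with 228 coverage (136 reads), 186 bp beyond the annotated 3′ end of twi at 23048325, and its higher base, 23048511, had 223 coverage against 184 at the strongest TSS of twi itself. The value of 223 came from the library of 5931389 reads and that of 184 from the library of 4070746 reads, so the order of these bases within a library is not known. It lay in no annotated gene on that strand, and the nearest annotated start on the strand was that of twi, 2189 bp away. Inside twi and away from its starts, 30 antisense TSSs were listed when those at starts of other genes were kept. Most of them lay at the starts of CG9896 and CG42741, with highest values of 378 and 276. Away from such starts, the antisense group with the highest coverage had 66.4 (4 TSSs, 42 reads). Inside Tl, away from its start, 18 of 22 sense TSSs lay in the coding sequence between 26837758 and 26841034 and 4 in introns, with no value above 7.37. A group of 4 antisense TSSs (71.8 coverage, 31 reads) lay in an intron within an annotated transposable element of the roo family. An antisense group of 3 TSSs (47.6 coverage, 32 reads) lay in the 3′ UTR of sna, 46 bp before its end. In sog, 5 sense and 7 antisense TSSs lay inside 30152 bp, with a highest value of 19.7. Away from their starts, zen2 and tsg had no TSS inside the gene on either strand.

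Other genes of the pathway were described from lists chosen by their known roles, without a test. Of 14 further maternal genes of the Toll pathway, all had a TSS at a start, 9 reached 100 and the median was 121. Of all protein-coding genes, 70.0% had a TSS at a start and 43.7% reached 100. The median of 121 was below the 173 of all protein-coding genes with a TSS. cact, which encodes the inhibitor that holds Dorsal in the cytoplasm, had 7322 ± 105, the highest of that list and between Tl and sog. pip, a sulfotransferase gene that acts in ventral follicle cells of the ovary, had 880 ± 39.7, while 6 of the 8 follicle cell and yolk genes had no TSS. The lowest value of the list, 4.91 from 2 reads, was at ndl, a protease gene of ovarian follicle cells that is named here after its value was seen. The maternal genes thus ran from the bottom to near the top of the protein-coding genes.

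Zygotic genes of the axis were summarized by the domain they are used in. For comparison, 43.7% of all protein-coding genes reached 100, and the median was 173 over those with a TSS. Of 10 ventral and mesoderm genes, 9 reached 100, with a median of 769, led by zfh1 (5380), a zinc finger homeodomain factor, and fog (2753), the secreted signal for ventral furrow formation. All of 8 lateral neuroectoderm genes reached 100, with a median of 794, led by vn (3604), an EGF receptor ligand, and pyr (2162), an FGF ligand. Of 12 dorsal ectoderm and amnioserosa genes, 11 reached 100, with a median of 1451, led by Doc1 (14943), a T-box factor, and ush (14652), a cofactor of GATA proteins. Doc1 and ush were above Tl, while zen, tsg and zen2 were below 100 within the same domain. The gene of the list that did not reach 100 was C15 (15.9, 10 reads), named here after its value was seen.

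**Figure D5:**
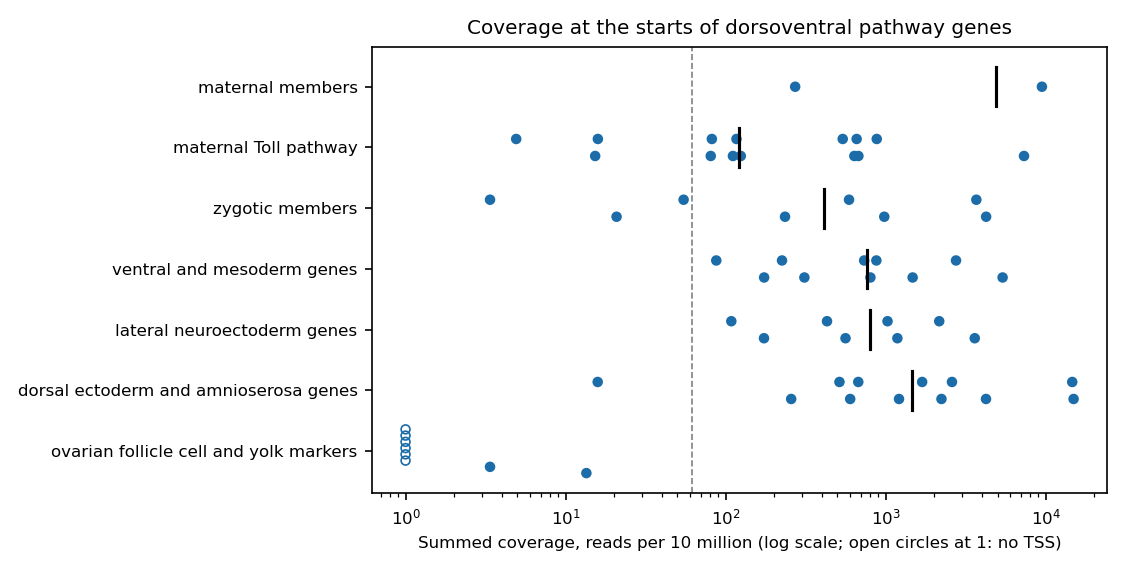
Coverage summed at the starts of each gene (points, horizontal, log scale, reads per 10000000) by list (rows), with the list's median as a black bar and the median of all protein-coding genes, 61.9, as a dashed line. Open circles drawn at 1 stand for the 6 genes without a TSS. The 2 maternal and 8 zygotic members overlap in range, and the medians of the other zygotic lists lie between 769 and 1451.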

How the data were processed

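Canton S embryos were profiled by csRNA-seq (3 libraries, with 1 input library). The authors trimmed adapters with HOMER 4.11, aligned reads to dm6 with STAR 2.7.9a and took TSSs from read 5′ ends with a minimum of 3, a limit the scaled values meet (versions from the submitters' processing notes). The deposited coverage, a signal per TSS in reads per 10000000, is 1 column for the experiment. A deduplicated list keeps the strongest TSS of each group of overlapping windows, and the authors' log2 score of that list was not needed.

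Reads and library were recovered from the coverage steps for 232302 TSSs (relative tolerance 1e-07). TSSs within 200 bp of a transcript start on the same strand (Ensembl 115, BDGP6, whose coordinates are those of dm6) were summed per gene. Transposable element genes were left out. A TSS can count for more than 1 gene. The recovery and the sums were tested on simulated data. Tables were handled with pandas 2.3.3 and NumPy 2.4.6 in Python 3.11.15, intervals came from SciPy 1.17.1, and plots from matplotlib 3.10.9.

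Named were the 10 genes and, from each list, the 2 with the highest coverage. The low genes ftz, elav, ndl and C15, and the genes grk and cni, were named after their values were seen. Members and lists were chosen with earlier results of these data known. Alternatives were the distance to a start, at least 4 reads per TSS, the deduplicated list, the highest TSS, the transcript type and leaving out the TSSs of each library. The planned search for core promoter motifs needs genome sequence and was not run.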

Additional observations from a re-analysis of the deposited data

How the results depend on the processing

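Which genes had a TSS and the order of the genes depended little on the distance to a start. Tl, sog, rho, tld, sna, dl, twi, tsg, zen and zen2 stood in this order with 50 bp, 500 bp, at least 4 reads per TSS, the deduplicated list and protein-coding transcripts only. The order changed in every other setting. With the highest TSS, rho was above sog and twi above dl. Without the library of 7299457 reads, twi was above dl. Without that of 5931389 reads, rho, sog and tld were above Tl. Without that of 4070746 reads, sna was above rho and tld, and dl was above tld. With at least 4 reads, 9 of the 10 genes had a TSS, as zen2 was lost, against 8926 of 13968 protein-coding genes. zen2 was also lost, and 9 genes had a TSS, without the library of 5931389 reads, against 9159 of 13968 protein-coding genes. The median of the maternal pair, 4873, was 4384 in the deduplicated list, 4359 with the highest TSS, and without the TSSs of the libraries of 7299457, 5931389 and 4070746 reads 4704, 431 and 4610. The zygotic median, 413, was 264 in the deduplicated list and with the highest TSS, which hold 1 TSS per cluster or gene, 211 without the library of 5931389 reads and 59.9 without that of 4070746 reads. Of the 8 follicle cell and yolk genes, 2 had a TSS, against 1 within 50 bp, 1 with at least 4 reads and 0 without the library of 5931389 reads. Of all 13968 protein-coding genes, 9782 had a TSS, against 9464, 8926 and 9159 in these settings. No other list count moved by more than 1.5 times. Both alternatives for motifs were not run, as no genome sequence was used. No paired analysis was possible because the files hold 1 value per TSS for the experiment, so replicates could not be left out either. Values from 2 to 4 reads, as at zen and zen2, lie near the lower limit of the data and carry a wide counting error. Why they were low was not tested.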
